A study of Mus musculus with 8 samples.

Results

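Memory T helper 1 (Th1) cells from mice labelled Rictor-null were compared with memory Th1 cells from wild-type (WT) mice on Affymetrix expression arrays. The comparison used 4 of the 8 arrays of the study, 2 per genotype, chosen by their labels. The remaining 4 arrays held memory T follicular helper (Tfh) cells of both genotypes. All mice had been infected with LCMV Armstrong, a strain of lymphocytic choriomeningitis virus that mice clear as an acute infection, and polyclonal CD4 T cells were sorted from spleen on day 60. Each array held total RNA pooled from at least 10 mice, and 100 ng of it was taken for biotin labelling. The labels name no further allele or agent for either genotype. The promoter or cell type behind the Rictor deletion, the part of Rictor removed, and the sex, age and sort gates are not stated in the labels.

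Rictor gives mTOR complex 2 its identity. This kinase complex phosphorylates AKT, SGK and protein kinase C enzymes downstream of antigen and growth factor receptors. AKT in turn keeps FOXO transcription factors out of the nucleus, and FOXO factors drive genes of quiescence, homing and survival in resting T cells. Th1 cells are the CD4 lineage that makes interferon gamma under the factor T-bet. Some of them persist as memory cells after an acute infection, and others take up a terminal, cytotoxic effector state.

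The sorted cells carried CD4 T cell and Th1 markers in both genotypes. Signals, here and below, are the deposited probe set intensities on a linear scale. Cd4 had signals of 446 and 435 in Rictor-null Th1 cells, against 463 and 442 in WT Th1 cells. Cd3e, a chain of the T cell receptor complex, had 2845 and 2746 in Rictor-null Th1 cells, against 2652 and 2639 in WT Th1 cells. Tbx21, which encodes T-bet, had 448 and 462 in Rictor-null Th1 cells, against 451 and 444 in WT Th1 cells. Ifng, the interferon gamma gene, had 1421 and 1477 in Rictor-null Th1 cells, against 1449 and 1540 in WT Th1 cells. None of these 4 genes passed the test described below, with changes between -0.04 and 0.08 log2. Array medians of the 4 Th1 arrays lay between 35.7 and 37.3, and each array correlated best with the other array of its group. Cd8a, a chain of the CD8 coreceptor, had 44.4 and 39.1 in Rictor-null Th1 cells, against 52.2 and 41.1 in WT Th1 cells. Ncr1, the NKp46 receptor of natural killer (NK) cells, had 28.9 and 26.6 in Rictor-null Th1 cells, against 19.5 and 30.7 in WT Th1 cells. Cd8a was above the array medians and Ncr1 below them on all 4 Th1 arrays, with overlapping genotypes for both. The Y-linked genes Uty, Eif2s3y and Kdm5d had signals of at most 12.8 on all 4 arrays, and Xist, the RNA that coats the inactive X chromosome, had 5748 and 5725 in Rictor-null Th1 cells, against 5398 and 5357 in WT Th1 cells.

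No difference in Rictor itself passed the test. Its brightest probe set had 493 and 474 in Rictor-null Th1 cells, against 468 and 556 in WT Th1 cells, a change of -0.07 ± 0.074 log2 (SE, n = 2 arrays per genotype) with an adjusted p of 0.585 in limma, and its other 4 probe sets did not pass either. Which part of the gene these probe sets cover relative to the deletion is not stated in the labels, and the values therefore do not check the genotypes. Among the 35 tested genes nearest to Rictor on chromosome 15 (10 before it and 25 after it in the RefSeq order), 1 rose and 0 fell. That gene was Nipbl, the cohesin loader, which is the fourth tested gene after Rictor. It had 898 and 695 in Rictor-null Th1 cells, against 455 and 528 in WT Th1 cells (0.65 ± 0.12 log2, adjusted p = 0.0057), and its call ended without Rictor-null Th1 replicate 1 (adjusted p = 0.0684) or WT Th1 replicate 1 (adjusted p = 0.0526).

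Most genotype differences in Th1 cells were rises in Rictor-null cells. Signals were compared as log2(signal + 32), with limma. The words rose and fell are used where the p, adjusted by Benjamini-Hochberg over all 11217 genes tested, was under 0.05. The added 32 makes every fold smaller than the ratio of signals, most of all for dim genes. Of these genes, 1180 (10.5%) passed, with 847 rises (7.55%) and 333 falls (2.97%), and 2787 had an unadjusted p under 0.05. All 1180 had both Rictor-null arrays beyond both WT arrays. With 2 arrays per genotype such separation is also common among genes that did not pass. It was seen for 24 of 74 oxidative phosphorylation subunits, of which 0 passed. If the order of the arrays were random, it would occur with a probability of 0.333. Its share over all genes is not given here. Changes were mostly small, with a median of 0.365 log2 among rises and -0.30 among falls, while the median over all genes was 0.00. At least 1 log2 was reached by 26 rises and 2 falls, and 2 log2 by 2 rises and 0 falls. Quantile normalization of the arrays gave 669 rises and 538 falls, which is 55.4% rises against 71.8% in the deposited scaling, and it moved the median of all genes to -0.03. Of the arrays left out 1 at a time, 5 moved the total by more than 1.5 times. It was 580 without Rictor-null Th1 replicate 1, 698 without Rictor-null Th1 replicate 2, 613 without WT Th1 replicate 1 and 1775 without either Rictor-null Tfh array, which enter only the shared estimate of spread. Genes named below as risen or fallen passed under all alternatives that tested them, unless an exception is given. The 19 alternatives include 8 that each leave out 1 array. The filter on 4 arrays tested 166 of the 171 tested genes that the text names, and the other alternatives tested all 171. In sorted bulk RNA, fewer cells of a kind and less RNA per cell cannot be told apart.

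**Figure D1:**
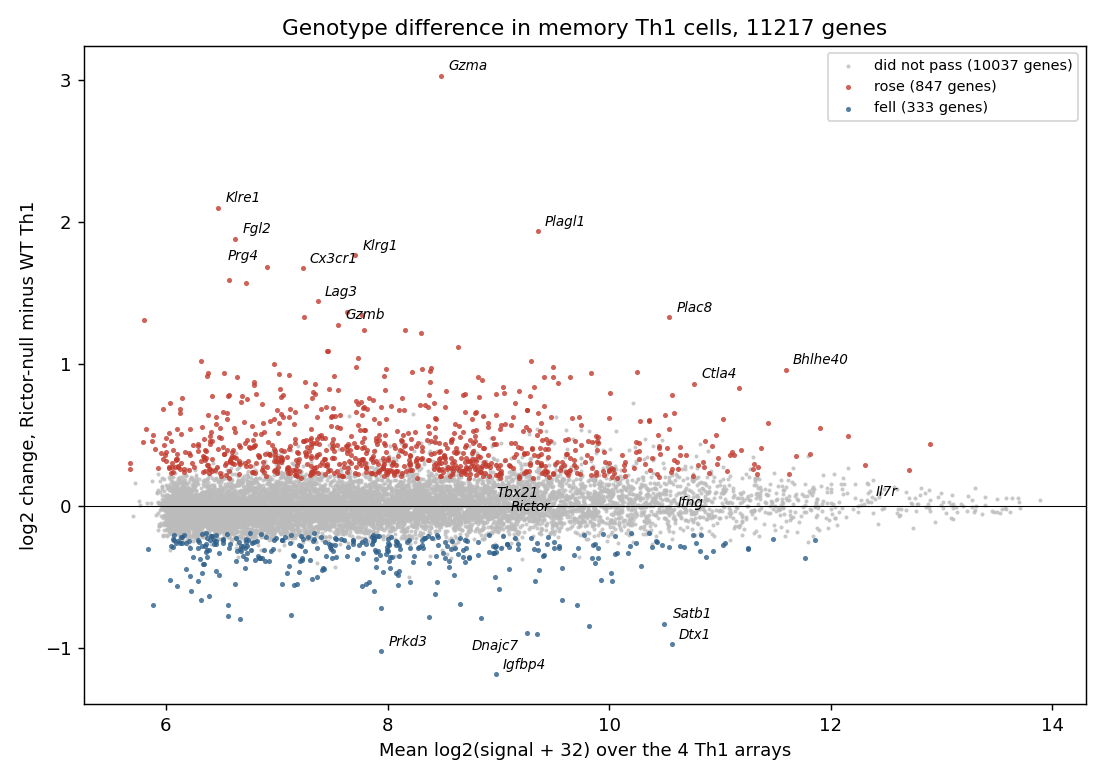
Change in log2(signal + 32), Rictor-null minus WT Th1 cells (y axis), against the mean log2(signal + 32) over the 4 Th1 arrays (x axis), 1 point per gene. The 847 rises are red and extend to 3.03 for Gzma, the 333 falls are blue and extend to -1.18 for Igfbp4, and Tbx21, Ifng, Il7r and Rictor lie near 0.

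The 2 largest rises were in a cytotoxic granule gene and a receptor of the NK lectin family. Gzma, which encodes granzyme A, a serine protease of cytotoxic granules, had 980.4 and 998 in Rictor-null Th1 cells, against 99.1 and 87.8 in WT Th1 cells. This was a rise of 3.03 ± 0.069 log2, or 8.14-fold on the signal plus 32, with an adjusted p of 2.21e-09 in limma, and the lowest Rictor-null array was far above the highest WT array. Gzmb, the gene of the apoptosis-inducing granzyme B, had 258 and 263 in Rictor-null Th1 cells, against 90.5 and 87 in WT Th1 cells. It rose by 1.28 ± 0.060 log2. A pair of genes of granule release and control also rose: Stx11, a syntaxin needed for granule fusion, by 0.81 ± 0.058 and Cst7, the protease inhibitor cystatin F, by 0.47 ± 0.061. Of 19 granule genes tested, 7 rose and 0 fell (4 rose without WT Th1 replicate 1), and the median change was 0.12 log2 beside 0.00 over all genes. Prf1, the pore-forming protein perforin, had 94.5 and 72.8 in Rictor-null Th1 cells, against 68 and 67.4 in WT Th1 cells (0.21 ± 0.086 log2, adjusted p = 0.164), and Gzmk, the granzyme K gene, had 379.7 and 485 in Rictor-null Th1 cells, against 396 and 387 in WT Th1 cells, with overlapping genotypes.

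Among 9 NK-type receptor genes tested, of 19 on the array, 6 rose and 1 fell, with a median of 0.30 log2. Klre1, an NK lectin-like receptor, had 138 and 166 in Rictor-null Th1 cells, against 12.2 and 9.61 in WT Th1 cells. It rose by 2.10 ± 0.079 log2 (adjusted p = 1.13e-07), from below the array medians in WT cells to well above them in Rictor-null cells. Klre1 passed the signal filter only through Rictor-null arrays, where it was higher, and it is counted among the rises of this list. Klrg1, an inhibitory receptor of terminally differentiated effector cells that binds cadherins, had 337 and 372 in Rictor-null Th1 cells, against 82.6 and 80.5 in WT Th1 cells, a rise of 1.77 ± 0.071. Klrd1, which encodes CD94 and pairs with NKG2 chains, rose by 0.46 ± 0.056, and Klrb1f, another lectin-like receptor, by 0.44 ± 0.066. In contrast Klrc1, which encodes the inhibitory CD94 partner NKG2A, had 38.6 and 46.4 in Rictor-null Th1 cells, against 87.2 and 89.5 in WT Th1 cells and fell by 0.69 on the log2 scale (adjusted p = 6.71e-05). Ncr1 and Eomes, used as markers of the NK cell lineage, did not pass. Ncr1 had the values above, below the array medians. Eomes, a T-box factor of NK and CD8 T cells, had 85.4 and 79.7 in Rictor-null Th1 cells, against 66.9 and 68.3 in WT Th1 cells (0.20 ± 0.075, adjusted p = 0.12). These Eomes signals lay above the array medians. Cd8b1, the second CD8 chain, had 56.9 and 52.8 in Rictor-null Th1 cells, against 54 and 56 in WT Th1 cells. Fcer1g, an adaptor of NK receptors, had 31.3 and 33.2 in Rictor-null Th1 cells, against 26.6 and 31.1 in WT Th1 cells, with overlapping genotypes for Cd8b1.

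**Figure D2:**
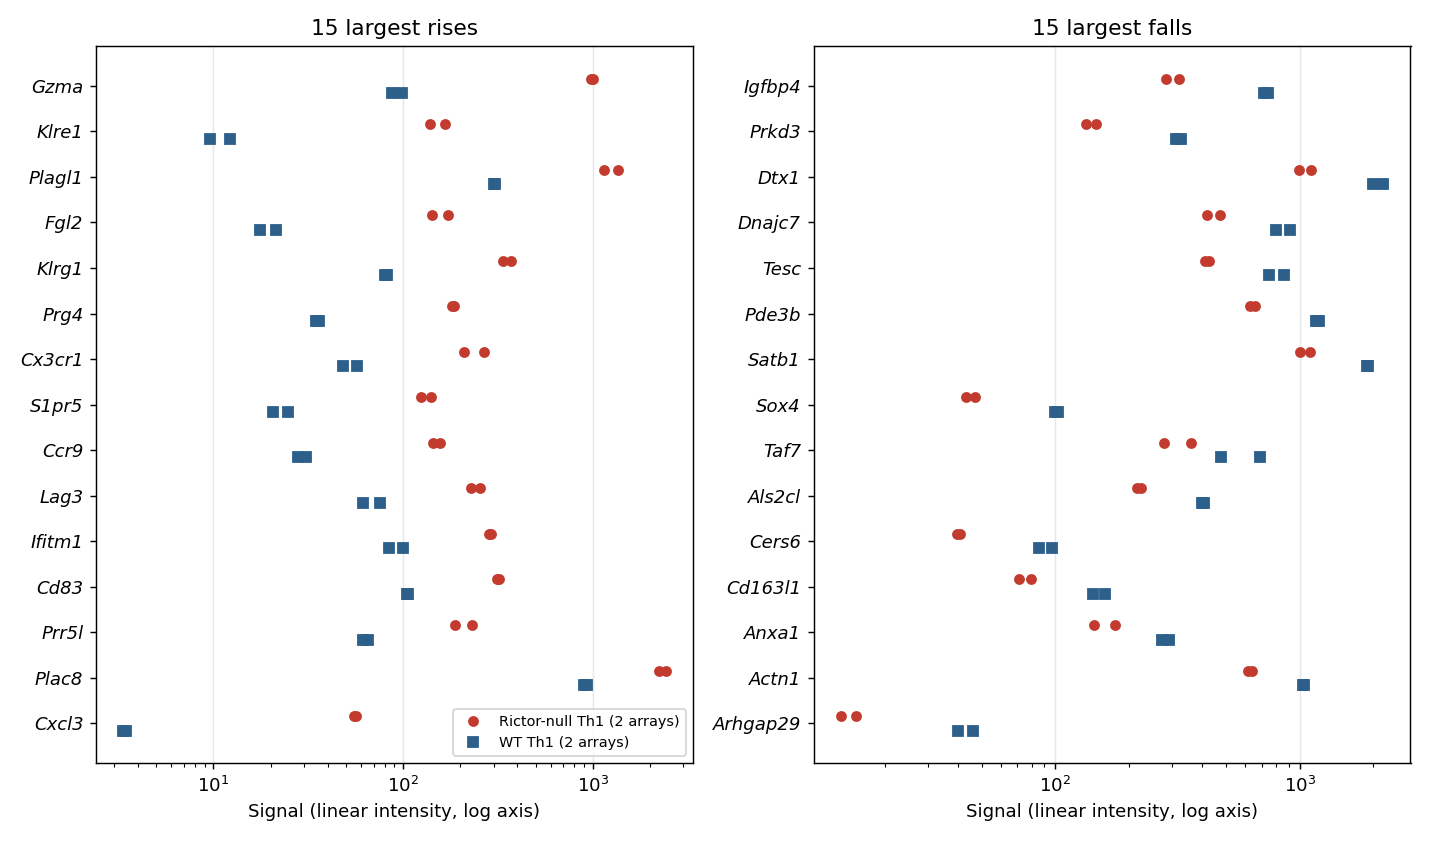
Signal on each of the 4 Th1 arrays (x axis, linear intensity on a log axis) of the 15 genes with the largest rises (left) and the 15 with the largest falls (right), with red circles for the 2 Rictor-null arrays drawn above blue squares for the 2 WT arrays. The genotypes do not overlap for any of these genes, as the choice of genes required. Gzma lies at 980.4 and 998 in Rictor-null cells, against 99.1 and 87.8 in WT cells.

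Promoter windows are shown for Gzma and Klre1, which had the largest rises, for Plac8, whose window held a T-box and a RUNX motif, and for Ifitm1 and Gbp3, which held the forkhead motif that FOXO factors bind. They are RefSeq sequences of GRCm38.p6, from 250 bases before to 50 after the outermost of the starts that the promoter table lists for the gene, read 5′ to 3′ on the strand of the gene. For Klre1, Plac8, Ifitm1 and Gbp3 that start lies inside the bounds that RefSeq gives the gene. Capitals mark a match to a searched motif on either strand. Plac8, Ifitm1 and Gbp3 were picked for their matches, so the windows shown do not represent the genes with large changes. Of the largest rises and falls, 24 had a window, and most of these windows held no searched motif. Ifitm1 was the only gene among them with a forkhead match, and Cers6 the only fall with any match. Gbp3 was not among them. The Gzma window spans chr13:113100932-113101231 on the minus strand, Klre1 chr6:129577963-129578262 on the plus strand, Plac8 chr5:100572156-100572455 on the minus strand, Ifitm1 chr7:140967826-140968125 on the plus strand and Gbp3 chr3:142559794-142560093 on the plus strand. In Gzma the RUNX match begins at base -51 from the start, in Klre1 at -229, in Plac8 the T-box match begins at -249 and the RUNX match at -202, and the forkhead match begins at 35 in Ifitm1 and at -239 in Gbp3.
Gzma: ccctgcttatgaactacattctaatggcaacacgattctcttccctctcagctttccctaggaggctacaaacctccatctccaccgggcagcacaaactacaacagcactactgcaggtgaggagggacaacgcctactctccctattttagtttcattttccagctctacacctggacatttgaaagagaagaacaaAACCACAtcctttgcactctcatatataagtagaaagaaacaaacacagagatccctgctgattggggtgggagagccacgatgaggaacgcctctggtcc
Klre1: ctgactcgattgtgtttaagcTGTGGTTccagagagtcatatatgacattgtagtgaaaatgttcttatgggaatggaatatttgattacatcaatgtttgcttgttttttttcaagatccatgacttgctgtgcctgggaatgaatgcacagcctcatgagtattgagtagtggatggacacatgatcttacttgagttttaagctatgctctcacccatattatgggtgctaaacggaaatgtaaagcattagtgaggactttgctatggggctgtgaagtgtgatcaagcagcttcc
Plac8: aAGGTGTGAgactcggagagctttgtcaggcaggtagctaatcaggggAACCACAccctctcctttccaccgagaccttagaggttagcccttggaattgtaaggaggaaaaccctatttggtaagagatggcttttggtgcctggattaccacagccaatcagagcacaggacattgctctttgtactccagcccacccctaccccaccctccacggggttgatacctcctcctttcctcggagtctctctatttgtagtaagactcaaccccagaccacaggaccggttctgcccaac
Ifitm1: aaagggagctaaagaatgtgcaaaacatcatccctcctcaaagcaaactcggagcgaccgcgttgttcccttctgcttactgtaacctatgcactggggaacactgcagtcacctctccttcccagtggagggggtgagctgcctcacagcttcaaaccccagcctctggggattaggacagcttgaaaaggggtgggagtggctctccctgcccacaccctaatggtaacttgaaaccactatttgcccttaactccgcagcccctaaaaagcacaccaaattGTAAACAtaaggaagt
Gbp3: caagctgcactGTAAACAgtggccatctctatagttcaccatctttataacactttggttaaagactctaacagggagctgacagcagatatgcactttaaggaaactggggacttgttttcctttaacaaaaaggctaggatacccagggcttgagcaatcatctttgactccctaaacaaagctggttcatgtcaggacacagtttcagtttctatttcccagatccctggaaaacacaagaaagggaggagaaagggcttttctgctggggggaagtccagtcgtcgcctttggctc

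Such windows were found for 9056 of the genes tested. The forkhead motif TGTTTAC was in 4.87% of the windows of genes that rose, in 2.27% of those that fell and in 2.64% of all windows. The AP-1 motif TGANTCA was in 6.35% of rises, 5.30% of falls and 4.75% of all, and the RUNX motif TGTGGTT in 3.99%, 4.92% and 3.75%. The T-box motif AGGTGTGA, bound by T-bet and Eomes, was in 1.18% of rises, 2.27% of falls and 0.928% of all, and the TCF and LEF motif CTTTGAT in 2.07%, 1.89% and 2.51%. The E-box CACGTG was in 11.5%, 9.47% and 10.3%, and the CRE motif TGACGTCA in 2.66%, 1.89% and 3.32%. Both strands were searched, none of the motifs contains another, and a match is a run of letters and not evidence of binding. These shares carry no test.

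Receptors that place T cells in tissues and blood also rose. Cx3cr1, the fractalkine receptor of effector T cells in blood and vessels, had 268 and 209 in Rictor-null Th1 cells, against 56.9 and 48.1 in WT Th1 cells, a rise of 1.67 ± 0.094 log2 (adjusted p = 1.97e-06). S1pr5, a sphingosine phosphate receptor used by NK and effector cells to leave tissue, had 139.6 and 125 in Rictor-null Th1 cells, against 20.6 and 24.7 in WT Th1 cells. It rose by 1.59 ± 0.066. Ccr9, the receptor for the gut chemokine CCL25, had 156 and 144 in Rictor-null Th1 cells, against 28 and 30.9 in WT Th1 cells. It rose by 1.57 ± 0.059, and both S1pr5 and Ccr9 were below the array medians in WT cells and well above them in Rictor-null cells. Ccr9 passed the signal filter only through Rictor-null arrays. Cxcr4, the receptor for CXCL12 that retains cells in marrow, had 1307 and 1348 in Rictor-null Th1 cells, against 743 and 760.1 in WT Th1 cells (0.79 ± 0.068). Ccrl2, a receptor-like protein that binds chemerin, rose by 0.68 ± 0.082. Of 13 chemokine receptors tested, 6 rose and 1 fell (4 rose and 0 fell without WT Th1 replicate 1). Cxcr3, the receptor that guides Th1 cells to inflamed tissue, had 1867 and 1718 in Rictor-null Th1 cells, against 2133 and 1986 in WT Th1 cells (-0.20 ± 0.071, adjusted p = 0.108). Cxcr6, another receptor of Th1 and tissue cells, had 411 and 489 in Rictor-null Th1 cells, against 357 and 429 in WT Th1 cells with overlapping genotypes.

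Of 24 egress and adhesion genes, 7 rose and 0 fell, with a median of 0.06 log2. The integrin chains were Itga1, which binds collagen, at 0.61, Itgav at 0.50, Itgae, which binds E-cadherin of epithelium, at 0.46, and Itgb1, the shared beta 1 chain, at 0.44 log2. Icam1, the ligand of LFA-1, had 626 and 632 in Rictor-null Th1 cells, against 346 and 358 in WT Th1 cells. It rose by 0.78 ± 0.055. Homing and survival genes that FOXO1 is known to drive differed in call. Ccr7, the lymph node homing receptor, had 809.8 and 797 in Rictor-null Th1 cells, against 644 and 675 in WT Th1 cells (0.27 ± 0.055, adjusted p = 0.00886). It rose in the full set but did not pass without Rictor-null Th1 replicate 1 (adjusted p = 0.0676) or WT Th1 replicate 1 (adjusted p = 0.0827). Klf2, the factor behind S1pr1 expression, had 3120 and 2812 in Rictor-null Th1 cells, against 3105 and 3269 in WT Th1 cells (-0.10 ± 0.071, adjusted p = 0.403). S1pr1, the main egress receptor, had 674 and 765 in Rictor-null Th1 cells, against 815 and 1062 in WT Th1 cells (-0.36 ± 0.10, adjusted p = 0.0503). Il7r, the receptor chain for the survival cytokine IL-7 and another FOXO1 target, had 5153 and 5261 in Rictor-null Th1 cells, against 5325 and 4892 in WT Th1 cells, with overlapping genotypes, and none of these last 3 genes passed.

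Transcription factors of effector cells were a group with rises and no falls. Of 23 factors of effector and helper differentiation, 12 rose and 0 fell, with a median of 0.34 log2. Plagl1, a zinc finger factor that can halt the cell cycle, had 1141 and 1367 in Rictor-null Th1 cells, against 301 and 306 in WT Th1 cells, a rise of 1.93 ± 0.087 log2 (adjusted p = 2.92e-07). Bhlhe40, a helix-loop-helix factor of cytokine-producing T cells, was bright in both genotypes with 4252 and 4308 in Rictor-null Th1 cells, against 2220 and 2156 in WT Th1 cells, and rose by 0.96 ± 0.057. Zeb2, which acts with T-bet in terminal effector cells, had 120.4 and 111 in Rictor-null Th1 cells, against 47 and 59.9 in WT Th1 cells. It rose by 0.79 ± 0.082. Ahr, the aryl hydrocarbon receptor, rose by 0.91 ± 0.070, Nfil3, a bZIP factor, by 0.68 ± 0.059, and Ikzf2, which encodes the Ikaros family member Helios, by 0.62 ± 0.064. Tbx21 and Eomes did not pass, and Id2, an inhibitor of E proteins in effector cells, had 2622 and 2733 in Rictor-null Th1 cells, against 2005 and 2493 in WT Th1 cells, with a change of 0.26 ± 0.14 and an adjusted p of 0.281.

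Several genes of memory and naive T cells fell. In this list of 22 genes, 8 fell and 1 rose, with a median of -0.13 log2 (5 fell and 0 rose without Rictor-null Th1 replicate 1). Igfbp4, an insulin-like growth factor binding protein expressed by naive T cells, had 319.6 and 285 in Rictor-null Th1 cells, against 739.6 and 714 in WT Th1 cells, the largest fall with -1.18 ± 0.073 log2 (adjusted p = 3.76e-06). Satb1, a chromatin organiser of developing and naive T cells, had 1001 and 1107 in Rictor-null Th1 cells, against 1885 and 1899 in WT Th1 cells and a change of -0.83 ± 0.064. Sox4, a factor of early lymphocytes, had 43.3 and 46.7 in Rictor-null Th1 cells, against 103 and 100.0 in WT Th1 cells (-0.79 ± 0.057). Actn1, an actin cross-linker high in naive and central memory cells, had 616 and 636 in Rictor-null Th1 cells, against 1031 and 1041 in WT Th1 cells (-0.70 ± 0.057). The repressor gene Bach2, which restrains effector genes, had 392 and 384 in Rictor-null Th1 cells, against 590.3 and 604 in WT Th1 cells and fell by 0.58 on the log2 scale. Lef1, a partner of the memory factor TCF-1, was at -0.33 ± 0.068 and passed in the full set, but not without Rictor-null Th1 replicate 1 (adjusted p = 0.105) or WT Th1 replicate 1 (adjusted p = 0.06). Bcl6, a repressor of Tfh and memory cells, had 93 and 92 in Rictor-null Th1 cells, against 90 and 94.5 in WT Th1 cells. Id3, an inhibitor of E proteins, had 219.7 and 210.4 in Rictor-null Th1 cells, against 186 and 169 in WT Th1 cells (0.24 ± 0.085, adjusted p = 0.104), so neither passed.

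**Figure D3:**
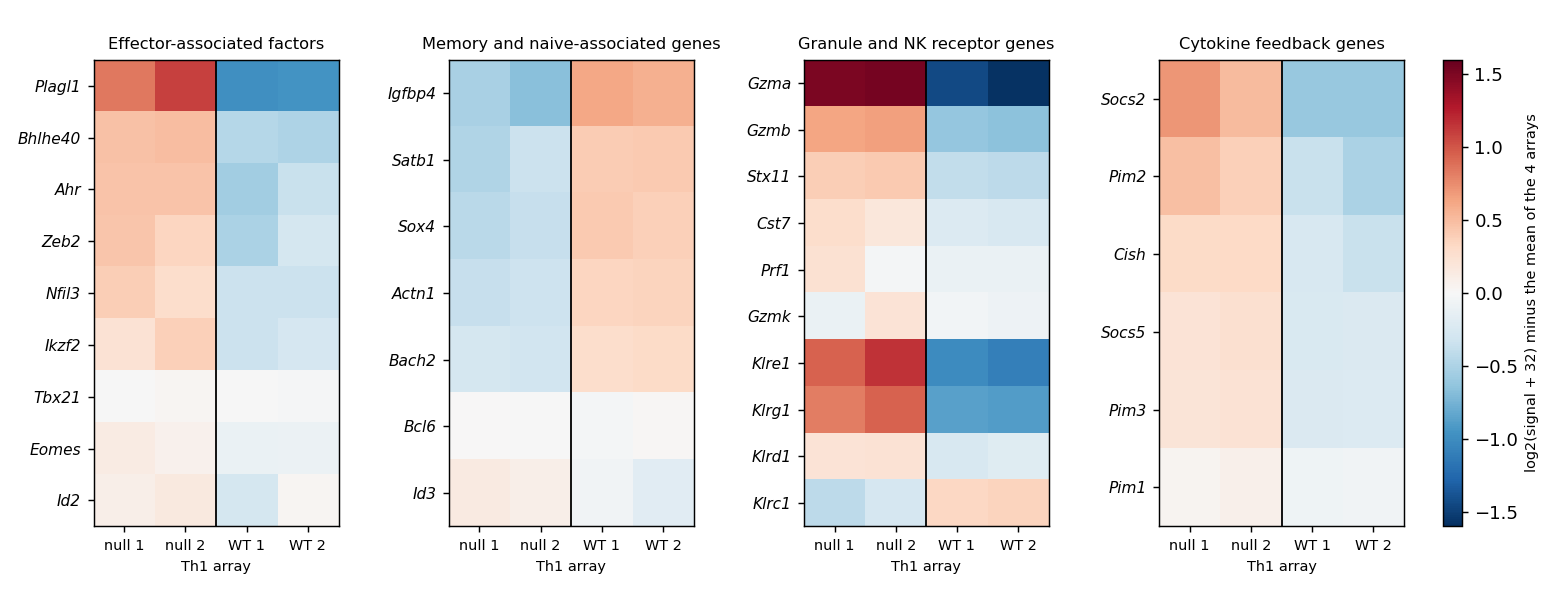
log2(signal + 32) on each Th1 array minus the mean of the 4 arrays (colour, red higher and blue lower), for genes of 4 groups (rows) on Rictor-null replicates 1 and 2 and WT replicates 1 and 2 (columns). Plagl1 to Ikzf2, Gzma to Cst7, Klre1 to Klrd1 and Socs2 to Pim3 are higher in both Rictor-null arrays, Igfbp4 to Bach2 and Klrc1 are lower, and Tbx21, Bcl6 and Pim1 are near 0 throughout.

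Of the other large falls, several encode signalling enzymes and adaptors. Dtx1, a Notch-pathway ubiquitin ligase that also promotes anergy in T cells, had 1112 and 993 in Rictor-null Th1 cells, against 2200 and 1987 in WT Th1 cells and a change of -0.97 ± 0.079 log2 (adjusted p = 2.15e-05). Pde3b, which degrades cyclic AMP and is an AKT substrate in fat and liver cells, had 629 and 656 in Rictor-null Th1 cells, against 1163 and 1198 in WT Th1 cells (-0.85 ± 0.056). Tesc, a calcium-binding protein, had 409.6 and 425 in Rictor-null Th1 cells, against 752 and 861 in WT Th1 cells (-0.90 ± 0.068). Dnajc7, a co-chaperone of HSP70 and HSP90, had 419 and 470.5 in Rictor-null Th1 cells, against 802 and 912 in WT Th1 cells (-0.90 ± 0.074). Smaller falls were seen for Als2cl at -0.78, Cers6, a ceramide synthase, at -0.77, Cd163l1, a scavenger receptor cysteine-rich protein, at -0.77, Anxa1, a phospholipid-binding annexin, at -0.72 and Arhgap29, a RhoA GTPase activator, at -0.70 log2. Arhgap29 passed the signal filter only through the WT Th1 arrays, where it was higher. Taf7, a TFIID subunit, had 279 and 359 in Rictor-null Th1 cells, against 474 and 688 in WT Th1 cells (-0.79 ± 0.16, adjusted p = 0.00884), and its call ended without Rictor-null Th1 replicate 1 (adjusted p = 0.111) and with no signal filter (adjusted p = 0.055). The other kept probe set of Taf7 gave -0.04 log2. Over the 30 largest rises and falls, 23 further probe sets were kept, all 23 had the sign of the brightest one, and 12 of them also passed.

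In the mTOR and phosphoinositide 3-kinase pathway 3 of 37 genes rose and 2 fell, a share close to that over all genes, with a median of -0.02 log2 (2 rose and 1 fell without Rictor-null Th1 replicate 1). Prr5l, the gene of an mTOR complex 2 binding partner, had 230.2 and 188 in Rictor-null Th1 cells, against 65.5 and 61.3 in WT Th1 cells, a rise of 1.33 ± 0.084 log2 (adjusted p = 4.67e-06). Prkd3, a protein kinase D enzyme downstream of diacylglycerol, had 134 and 147 in Rictor-null Th1 cells, against 325 and 313 in WT Th1 cells and a change of -1.02 ± 0.064, so the largest rise and the largest fall of the list were each past 1 log2. Pik3r5, the p101 regulatory subunit of the G protein-coupled kinase PI3K gamma, rose by 0.40 ± 0.059. Of 21 Notch pathway genes 3 rose and 1 fell, with Rbpj, the DNA-binding partner of Notch, at 0.56 ± 0.057 beside Dtx1, and 1 rose and 1 fell after quantile normalization. The count was the same 1 and 1 without Rictor-null Th1 replicate 1 or without either WT Th1 array.

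Among 28 FOXO factors and reported target genes, 10 rose and 1 fell, with a median of 0.10 log2. Gadd45b, a stress-inducible growth arrest gene, had 3075 and 3012 in Rictor-null Th1 cells, against 1666 and 1725 in WT Th1 cells. It rose by 0.83 ± 0.054. Pmaip1, which encodes the BH3-only killer NOXA, had 703 and 643 in Rictor-null Th1 cells, against 326 and 402 in WT Th1 cells (0.84 ± 0.12). Cdkn1a, the cell cycle inhibitor p21, had 434 and 436 in Rictor-null Th1 cells, against 263 and 251 in WT Th1 cells (0.69 ± 0.075). Klf4, a zinc finger factor that restrains T cell proliferation, rose by 0.66 ± 0.097, Trib2, a pseudokinase, by 0.47 ± 0.066 and Bcl2l11, the BH3-only gene BIM, by 0.42 ± 0.064. The fall was Foxo1 itself, at -0.27 ± 0.062 (adjusted p = 0.0194), which did not pass when any 1 of the 4 Th1 arrays was left out, with adjusted p from 0.0598 to 0.132, or with the mean of all probe sets per gene (adjusted p = 0.0509). Foxo3 had 325 and 342 in Rictor-null Th1 cells, against 345 and 372 in WT Th1 cells (-0.09 ± 0.072, adjusted p = 0.458), lower on both Rictor-null arrays by less than the test could call.

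Genes for and against cell death were among the rises, and 2 genes that promote death fell. Of 21 BCL2 family and death receptor genes, 6 rose and 2 fell (4 rose and 1 fell without Rictor-null Th1 replicate 1, 4 and 0 without Rictor-null Th1 replicate 2, 5 and 0 without WT Th1 replicate 1). Bcl2, which protects mitochondria and sustains memory cells, had 1590 and 1649 in Rictor-null Th1 cells, against 1133 and 1145 in WT Th1 cells, a rise of 0.50 ± 0.065 log2. The pro-apoptotic genes Pmaip1 and Bcl2l11, given above, and Bid, which links death receptors to mitochondria and rose by 0.41 ± 0.065, were also higher. The falls were Bbc3, the BH3-only gene PUMA, with 105 and 99.5 in Rictor-null Th1 cells, against 133 and 127 in WT Th1 cells (-0.27 ± 0.059), and Tnfrsf1a, the TNF receptor with a death domain, with 208 and 196 in Rictor-null Th1 cells, against 306 and 274 in WT Th1 cells (-0.46 ± 0.090). Bbc3 did not pass without either Rictor-null Th1 array or WT Th1 replicate 1 (adjusted p from 0.053 to 0.103). Tnfrsf1a did not pass without Rictor-null Th1 replicate 2 (adjusted p = 0.0758) or WT Th1 replicate 1 (adjusted p = 0.0715).

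Many cytokine genes rose, while the signature Th1 cytokine did not pass. Of 24 cytokine and chemokine ligand genes tested 13 rose and 0 fell, with a median of 0.23 log2. Cxcl10, the interferon-induced ligand of CXCR3, had 544 and 567 in Rictor-null Th1 cells, against 235 and 242 in WT Th1 cells. It rose by 1.12 ± 0.077 (adjusted p = 7.52e-06). Ccl5, the chemokine RANTES, was among the brightest genes with 8593 and 9083 in Rictor-null Th1 cells, against 6607 and 6436 in WT Th1 cells (0.44 ± 0.056). Ccl4, an inflammatory chemokine, rose by 0.69 ± 0.083. Csf1, the macrophage growth factor, rose by 0.65 ± 0.080, Il21, a helper cytokine for B cells, by 0.49 ± 0.070, Il4, the type 2 cytokine, by 0.46 ± 0.065 and Il10, an inhibitory cytokine, by 0.42 ± 0.062, the last 2 from low signals. Cxcl3, a neutrophil chemokine, had 56.4 and 54.9 in Rictor-null Th1 cells, against 3.34 and 3.45 in WT Th1 cells, a rise of 1.31 ± 0.053. Both WT arrays were far below the array medians, and Cxcl3 passed the signal filter only through the 2 Rictor-null Th1 arrays. Cxcl2, its close relative, rose by 0.54 ± 0.070. Beside them Ifng was at -0.04 ± 0.057 (adjusted p = 0.691) and Tnf, the tumour necrosis factor gene, had 211 and 217 in Rictor-null Th1 cells, against 245 and 232 in WT Th1 cells (-0.13 ± 0.062, adjusted p = 0.215).

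Feedback inhibitors of cytokine signalling were among the groups with rises and no falls. Of 11 SOCS, CISH and Pim genes 6 rose and 0 fell, with a median of 0.44 log2, and all 11 changes were above 0. Socs2, which restrains growth hormone and STAT5 signals, had 484 and 416 in Rictor-null Th1 cells, against 175 and 175 in WT Th1 cells. It rose by 1.21 ± 0.082 (adjusted p = 6.24e-06). Pim2, a STAT-induced survival kinase, had 436 and 404 in Rictor-null Th1 cells, against 228 and 203 in WT Th1 cells (0.87 ± 0.075). Cish, a STAT5 target that dampens IL-2 and T cell receptor signals, had 969 and 979 in Rictor-null Th1 cells, against 644 and 600.1 in WT Th1 cells (0.62 ± 0.061). Socs5 rose by 0.47 ± 0.054 and Pim3 by 0.44 ± 0.053. Of the receptor chains upstream, 4 of 27 rose and 4 fell, with a median of 0.01. Il1r2, the decoy receptor for IL-1, had 98.5 and 91.7 in Rictor-null Th1 cells, against 35.7 and 33.2 in WT Th1 cells (0.94 ± 0.072). Il10ra, the IL-10 receptor chain, rose by 0.63 ± 0.057 and Ifngr1, the interferon gamma receptor chain, by 0.44 ± 0.055. A pair of receptors of the TGF beta superfamily fell. Tgfbr3, betaglycan, had 213 and 214 in Rictor-null Th1 cells, against 332 and 315 in WT Th1 cells (-0.54 ± 0.075). Acvr1b, an activin receptor, was at -0.56 ± 0.078.

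Some coreceptors rose on both the inhibitory and the costimulatory side. Of 14 inhibitory receptors and ligands 7 rose and 2 fell. Lag3, an inhibitory receptor for MHC class II, had 254 and 228 in Rictor-null Th1 cells, against 61.6 and 75.4 in WT Th1 cells, a rise of 1.44 ± 0.086 log2 (adjusted p = 2.98e-06), and Ctla4, which competes with CD28, had 2294 and 2330 in Rictor-null Th1 cells, against 1228 and 1289 in WT Th1 cells (0.86 ± 0.055). Cd200, an inhibitory ligand, rose by 0.72 ± 0.080 and Nt5e, the CD73 enzyme that makes adenosine, by 0.49 ± 0.059. Lair1, a collagen receptor, fell by 0.46 on the log2 scale with 96.3 and 90.7 in Rictor-null Th1 cells, against 134 and 148 in WT Th1 cells. Of 27 costimulatory genes 10 rose and 2 fell. Cd83, a surface protein of activated cells, had 313 and 319.9 in Rictor-null Th1 cells, against 106 and 105 in WT Th1 cells. It rose by 1.34 ± 0.060, and Tnfrsf4, the receptor OX40, had 1144 and 992 in Rictor-null Th1 cells, against 573 and 532 in WT Th1 cells (0.91 ± 0.085). Tnfsf11, the ligand RANKL, rose by 0.73 ± 0.11 and Slamf6, a homophilic receptor of lymphocytes, by 0.46 ± 0.059, while Tnfsf14, the ligand LIGHT, had 34.4 and 37.7 in Rictor-null Th1 cells, against 60.3 and 64.5 in WT Th1 cells (-0.47 ± 0.057).

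Some early response genes and inhibitors of MAP kinase and G protein signals rose in Rictor-null cells. Of 29 early response genes 12 rose and 2 fell, with a median of 0.19 log2. Fosl2, an AP-1 subunit, had 433 and 433 in Rictor-null Th1 cells, against 214 and 204 in WT Th1 cells (0.95 ± 0.075, adjusted p = 1.78e-05). Atf3, a stress-induced bZIP factor, had 504 and 521 in Rictor-null Th1 cells, against 296 and 271 in WT Th1 cells (0.79 ± 0.066). Nr4a3, an orphan nuclear receptor induced by antigen, had 1926 and 1976 in Rictor-null Th1 cells, against 1124 and 1121 in WT Th1 cells (0.78 ± 0.064). Fos, the best known member, had 6592 and 7002 in Rictor-null Th1 cells, against 6555 and 6487 in WT Th1 cells. Egr1 had 2293 and 1985 in Rictor-null Th1 cells, against 2309 and 2214 in WT Th1 cells, with genotypes that did not overlap for Fos (adjusted p = 0.575) and overlapped for Egr1. The count was 7 rises and 0 falls without Rictor-null Th1 replicate 1 or WT Th1 replicate 2, 9 and 0 without WT Th1 replicate 1, and 9 and 0 with an added constant of 1 in place of 32. Whether handling of the cells before lysis moved these genes was not tested.

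In the list of MAP kinase phosphatases, RGS, Sprouty and Spred genes, 13 of 25 rose and 1 fell, with a median of 0.23 log2 (9 rose and 0 fell without WT Th1 replicate 1). Spry1, a Sprouty inhibitor of receptor signalling to RAS, had 617 and 579 in Rictor-null Th1 cells, against 320.3 and 298 in WT Th1 cells (0.89 ± 0.080, adjusted p = 4.31e-05). Dusp4, a nuclear MAP kinase phosphatase, had 268 and 275 in Rictor-null Th1 cells, against 151 and 147 in WT Th1 cells (0.75 ± 0.061), Dusp14 rose by 0.75 ± 0.099, Dusp16, which acts on JNK and p38, by 0.73 ± 0.079 and Dusp6, which acts on ERK, by 0.53 ± 0.062. Of 20 NF-kB subunits and feedback genes 5 rose and 0 fell (3 rose without Rictor-null Th1 replicate 1), led by Nfkbie, the inhibitor I kappa B epsilon, with 871 and 779 in Rictor-null Th1 cells, against 413 and 483 in WT Th1 cells (0.84 ± 0.095). The T cell receptor complex and its proximal kinases and adaptors stayed near the background, with 2 of 35 rising and 3 falling and a median of -0.05 (0 rose and 3 fell without Rictor-null Th1 replicate 1, 1 and 2 without Rictor-null Th1 replicate 2). A pair of adaptors fell. Pag1, which recruits the inhibitory kinase CSK, had 779.5 and 786 in Rictor-null Th1 cells, against 1148 and 1122 in WT Th1 cells (-0.52 ± 0.055). Grap2, the GADS adaptor, was at -0.33 ± 0.054.

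**Figure D4:**
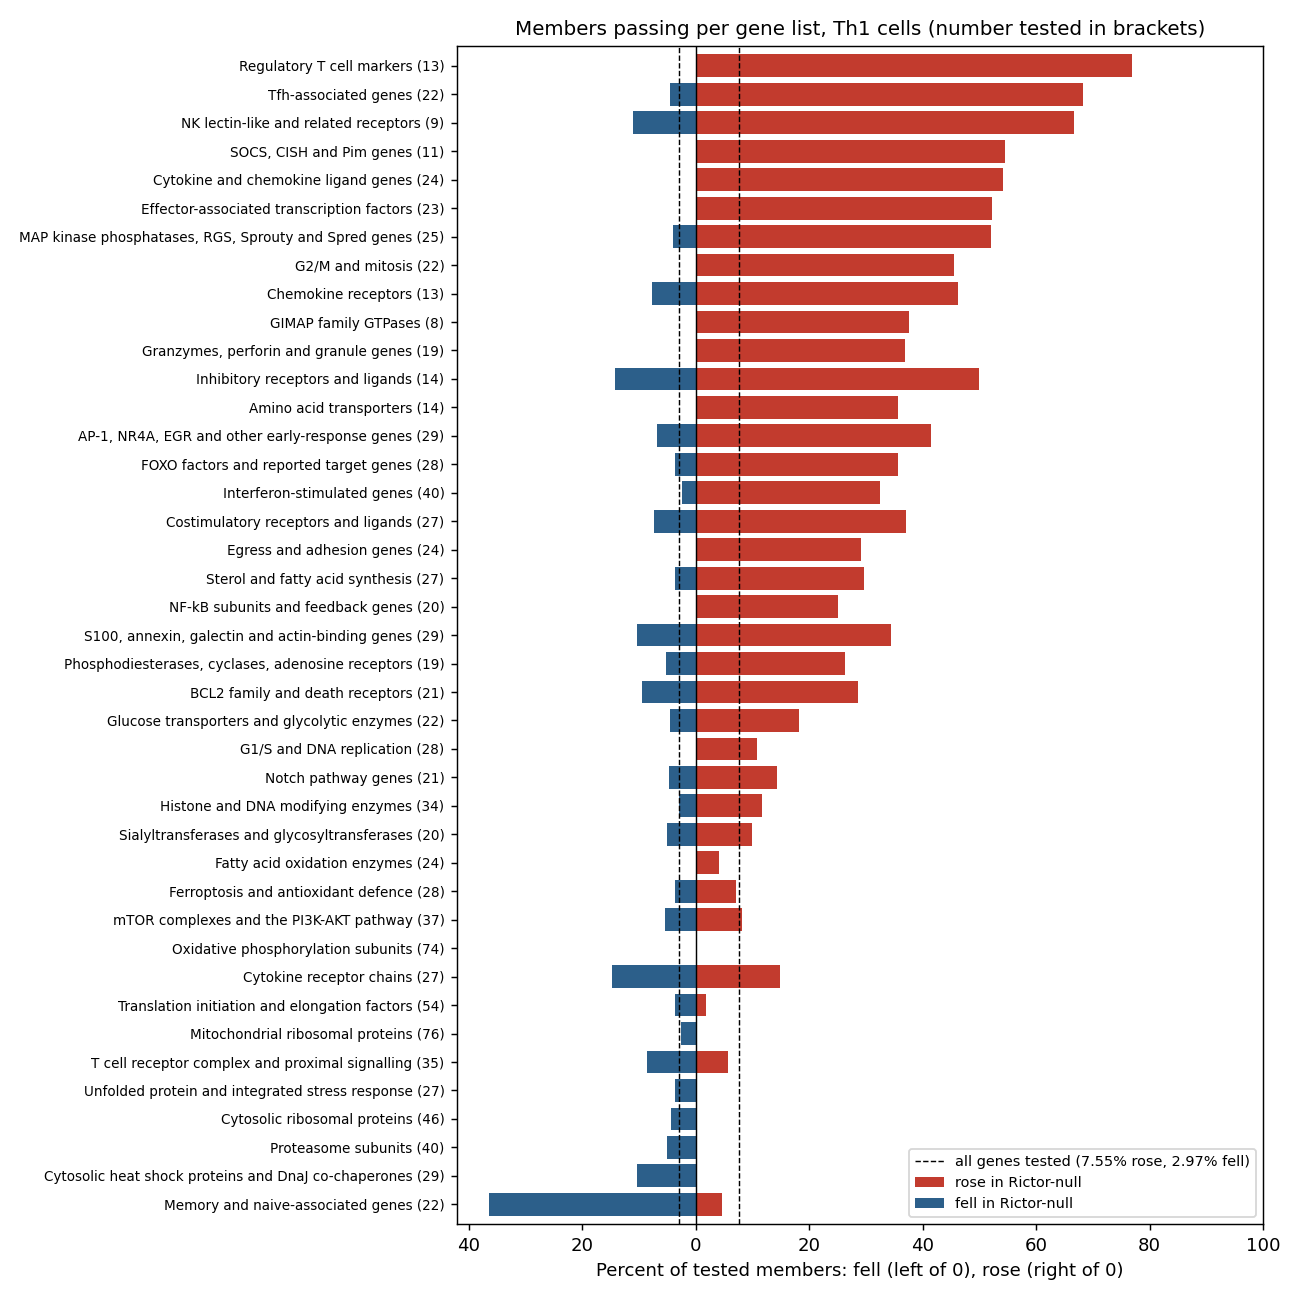
Share of tested members that rose (right of 0, red) or fell (left of 0, blue) in Rictor-null Th1 cells for each gene list of T cell functions and lineages and of basic cell machinery (rows, number of members tested in brackets), ordered by rises minus falls. Dashed lines mark the shares over all 11217 genes, 7.55% for rises and 2.97% for falls. Oxidative phosphorylation has 0 members past the test, and 8 of 22 memory and naive-associated genes fell. Marker lists of other cell types are not drawn.

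Genes of cyclic AMP and cyclic GMP signalling, which restrains T cell activation, moved in both directions, with 5 of 19 rising and 1 falling. Ptger2, the prostaglandin E2 receptor EP2 that raises cyclic AMP, had 183 and 192 in Rictor-null Th1 cells, against 85.7 and 92.1 in WT Th1 cells (0.86 ± 0.057). Pde2a, a phosphodiesterase stimulated by cyclic GMP, had 2571 and 2514 in Rictor-null Th1 cells, against 1702 and 1602 in WT Th1 cells (0.61 ± 0.072), against the fall of Pde3b above. Crem, a cyclic AMP-responsive factor, rose by 0.49 ± 0.079.

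Of 22 glucose transporters and glycolytic enzymes 4 rose and 1 fell, with a median of -0.01 log2. Only 2 of them passed without either Rictor-null Th1 array or without WT Th1 replicate 1. The number was 3 without WT Th1 replicate 2, without either WT Tfh array or with the replicate number as a block. Slc2a3, the glucose transporter GLUT3, had 1632 and 1535 in Rictor-null Th1 cells, against 1067 and 1006 in WT Th1 cells (0.60 ± 0.063). Slc16a1, the lactate transporter MCT1, had 432 and 459 in Rictor-null Th1 cells, against 310.0 and 308 in WT Th1 cells (0.49 ± 0.068). Of 27 sterol and fatty acid synthesis genes 8 rose and 1 fell, and the number passing was 2, 1, 2 and 4 without Rictor-null Th1 replicate 1, Rictor-null Th1 replicate 2, WT Th1 replicate 1 and WT Th1 replicate 2. Scd2, a stearoyl-CoA desaturase, had 331 and 320.3 in Rictor-null Th1 cells, against 195 and 189 in WT Th1 cells (0.67 ± 0.055). Of 14 amino acid transporters 5 rose and 0 fell, which was 2, 1, 2 and 3 in the same order of arrays left out. The number was 3 without either WT Tfh array, 3 after quantile normalization or with no signal filter, and 2 with an added constant of 1. Slc43a1, a transporter of large neutral amino acids, passed throughout with 0.45 ± 0.078.

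Few genes of respiration, translation and protein turnover passed. None of 74 oxidative phosphorylation subunits passed limma, 3 had an unadjusted p under 0.05 and the median was 0.00 log2, while 2 fell after quantile normalization and 1 without either Rictor-null Tfh array. Cytosolic ribosomal proteins had 0 rises and 2 falls among 46, mitochondrial ribosomal proteins 0 and 2 among 76, and proteasome subunits 0 and 2 among 40, all below the 10.5% of all genes. After quantile normalization 6 mitochondrial ribosomal and 5 proteasome genes fell, and the number passing ranged from 0 to 4 in each of these 3 lists with single arrays left out. In the ferroptosis and antioxidant list 2 of 28 rose and 1 fell, a share of 10.7% that is close to that of all genes. Between 1 and 4 of them passed under the alternatives other than leaving out 1 array. Gpx4, the peroxidase that blocks ferroptosis, had 1145 and 1079 in Rictor-null Th1 cells, against 1153 and 1074 in WT Th1 cells, with overlapping genotypes. Ddit4, an inhibitor of mTOR complex 1 that stress induces, was the 1 fall among 27 genes of the unfolded protein and integrated stress response (1 to 4 passed with single arrays left out), with 99.7 and 102 in Rictor-null Th1 cells, against 159 and 158 in WT Th1 cells (-0.52 ± 0.057, adjusted p = 0.000161).

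Some genes of mitosis rose. Of 22 G2 and mitosis genes 10 rose and 0 fell, with a median of 0.18 log2 (5 rose without Rictor-null Th1 replicate 2, 6 without WT Th1 replicate 1). Mki67, the proliferation marker Ki-67, had 195 and 192 in Rictor-null Th1 cells, against 114 and 113 in WT Th1 cells (0.63 ± 0.061, adjusted p = 7.29e-05). Birc5, the mitotic protein survivin, had 61.1 and 62.2 in Rictor-null Th1 cells, against 42.8 and 36 in WT Th1 cells (0.39 ± 0.064). Of 28 genes of G1, S phase and replication 3 rose and 0 fell. This share of 10.7% is close to the 10.5% of all genes, and the median was -0.004 log2. Rrm2, a subunit of ribonucleotide reductase, had 139.5 and 152 in Rictor-null Th1 cells, against 93.4 and 101 in WT Th1 cells (0.46 ± 0.066) and passed throughout. The number passing in this list was 1 without either WT Tfh array, Rictor-null Th1 replicate 2 or WT Th1 replicate 1. It was 6 without either Rictor-null Tfh array or with the mean of all probe sets per gene.

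Interferon-stimulated genes rose in part, 13 of 40 with 1 fall and a median of 0.07 log2. The IFITM family, membrane proteins that block virus entry, led them. Ifitm1 had 285 and 290.0 in Rictor-null Th1 cells, against 99.8 and 84.6 in WT Th1 cells (1.37 ± 0.065, adjusted p = 4.4e-07), Ifitm3 had 335 and 283 in Rictor-null Th1 cells, against 122 and 102 in WT Th1 cells (1.24 ± 0.094) and Ifitm2 had 153 and 142 in Rictor-null Th1 cells, against 68.1 and 56.8 in WT Th1 cells (0.93 ± 0.083), so the 3 neighbouring genes of 1 family rose together. Gbp3, a guanylate-binding protein, rose by 0.81 ± 0.066, Ifi27l2a by 0.55 ± 0.069 and Ifit3 by 0.48 ± 0.058. The fall, chosen after its values were seen, was Bst2, the virus-tethering protein tetherin, with 110.0 and 103 in Rictor-null Th1 cells, against 149 and 180.1 in WT Th1 cells (-0.50 ± 0.091), whose call ended without Rictor-null Th1 replicate 2 (adjusted p = 0.0558).

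Cytoskeletal and calcium-binding proteins of effector and memory cells were mixed, with 10 of 29 rising and 3 falling (6 and 1 without Rictor-null Th1 replicate 2 or WT Th1 replicate 1). Lgals3, the lectin galectin 3, had 1243 and 1226 in Rictor-null Th1 cells, against 605 and 657 in WT Th1 cells (0.94 ± 0.061, adjusted p = 5.43e-06). Anxa2, an annexin of membranes, had 935 and 971 in Rictor-null Th1 cells, against 504 and 484 in WT Th1 cells (0.91 ± 0.075), opposite to Anxa1. Lmna, the nuclear lamin A gene, rose by 0.66 ± 0.082 and Vim, the intermediate filament vimentin, by 0.50 ± 0.062. Of the remaining largest rises, Fgl2, a secreted fibrinogen-like protein with inhibitory activity, had 143 and 174 in Rictor-null Th1 cells, against 17.6 and 21.4 in WT Th1 cells (1.88 ± 0.084). Fgl2 was below the array medians in WT cells and passed the signal filter only through Rictor-null arrays. Prg4, the proteoglycan lubricin, had 182 and 186 in Rictor-null Th1 cells, against 36.1 and 34.5 in WT Th1 cells (1.68 ± 0.063). Plac8, a small cysteine-rich protein of leukocytes, had 2244 and 2430 in Rictor-null Th1 cells, against 928 and 894 in WT Th1 cells (1.33 ± 0.062). Gimap5, a GTPase that lymphocytes need for survival, was the only 1 of 8 GIMAP genes tested that passed under all alternatives, with 312 and 295 in Rictor-null Th1 cells, against 205 and 206 in WT Th1 cells (0.50 ± 0.055), and 3 of the 8 rose in the full set. Only 1 rose after quantile normalization, without Rictor-null Th1 replicate 1 or without WT Th1 replicate 2.

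Genes that mark other CD4 lineages were also among the rises. Of 22 Tfh-associated genes, 15 rose and 1 fell, with a median of 0.42 log2, and of 13 regulatory T cell markers 10 rose and 0 fell, with a median of 0.46. Sostdc1, a secreted BMP and Wnt antagonist, had 141 and 151 in Rictor-null Th1 cells, against 55.9 and 58.2 in WT Th1 cells (1.00 ± 0.058). Tox2, a nuclear HMG-box factor, had 376 and 361 in Rictor-null Th1 cells, against 225 and 201 in WT Th1 cells (0.71 ± 0.077). Nrp1, a semaphorin receptor of regulatory T cells, had 1657 and 1649 in Rictor-null Th1 cells, against 838 and 851 in WT Th1 cells (0.94 ± 0.095). Marker genes of these lineages differed in call. Il21 of the Tfh list, and Ikzf2 and Ctla4 of the regulatory T cell list, rose, as given above. Bcl6, Cxcr5 and Foxp3 did not pass. Cxcr5, the follicle-homing receptor, had 52.7 and 50 in Rictor-null Th1 cells, against 55.7 and 46.8 in WT Th1 cells, with overlapping genotypes, and Foxp3, the regulatory T cell factor, had 35 and 27.5 in Rictor-null Th1 cells, against 16.9 and 23.7 in WT Th1 cells (0.27 ± 0.11, adjusted p = 0.239 with no signal filter), below the array medians. The summed signal of all 14 regulatory T cell markers on the array was 8678 and 8612 in Rictor-null Th1 cells, against 5135 and 5162 in WT Th1 cells. The part of other sorted CD4 cells in these values was not tested.

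Markers of cells outside the CD4 lineages were summed over every member on the array. NK and CD8 T cell markers (11 genes) summed to 2429 and 2467 in Rictor-null Th1 cells, against 1095 and 1118 in WT Th1 cells, and the 3 members that rose were Gzma, Klre1 and Klrd1, while each of the other 8 had at most 85.4 on any Th1 array. B cell and plasma cell markers (13 genes) summed to 2194 and 2140 in Rictor-null cells, against 2768 and 2603 in WT cells. Most of this was Ighm, the IgM heavy chain, with 1734 and 1725 in Rictor-null Th1 cells, against 2213 and 2108 in WT Th1 cells (-0.32 ± 0.068, adjusted p = 0.0129), whose call ended without Rictor-null Th1 replicate 1 (adjusted p = 0.0807), Rictor-null Th1 replicate 2 (adjusted p = 0.0776) or WT Th1 replicate 1 (adjusted p = 0.0993) and with the mean of all probe sets per gene (adjusted p = 0.147). Cd22, an inhibitory receptor of B cells, had 164 and 133 in Rictor-null Th1 cells, against 246 and 222 in WT Th1 cells (-0.57 ± 0.086). Cd79b, a chain of the B cell receptor, had 80.6 and 67.6 in Rictor-null Th1 cells, against 52.2 and 47.2 in WT Th1 cells (0.38 ± 0.11, adjusted p = 0.0547). It did not pass, though it did under 6 of the 19 alternatives. Myeloid markers (19 genes) summed to 2350 and 2258 in Rictor-null cells, against 2011 and 2025 in WT cells, mostly from Cebpb and Cst3, which T cells can also express. Cebpb rose in the full set, but not after quantile normalization or without either Rictor-null Th1 array or WT Th1 replicate 1. The call of Cst3 as a rise ended under 11 of the 19 alternatives, and after quantile normalization 0 myeloid markers passed. The part of such cells in the differences above was not tested.

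The genotype difference was also set against that in the 4 Tfh arrays. The difference between both effects, fitted as an interaction in limma, passed for 136 of 11217 genes (1.21%). It was 0.75 ± 0.097 log2 for Gzma (adjusted p = 0.00499), whose rise was 3.03 ± 0.069 in Th1 cells and 2.28 ± 0.069 in Tfh cells, and 0.93 ± 0.11 for Klre1 (adjusted p = 0.00378), with 2.10 ± 0.079 in Th1 and 1.17 ± 0.079 in Tfh cells. Dnajc7 changed sign, with -0.90 ± 0.074 in Th1 cells and 0.37 ± 0.074 in Tfh cells (difference -1.27 ± 0.11, adjusted p = 0.000559). Cxcl3 had 1.31 ± 0.053 in Th1 cells and 0.28 ± 0.053 in Tfh cells (difference 1.03 ± 0.075, adjusted p = 0.000379). Others such as Plagl1, Lag3 and Bhlhe40 did not pass this test, with differences of 0.43 ± 0.12, 0.02 ± 0.12 and 0.01 ± 0.081 log2. Among the genes named in the text 34 passed it. Many of the named genes were picked for their Th1 change in these same arrays, and the difference contains that change. This choice favours positive differences among rises and negative ones among falls, so the 34 cannot be set against the 1.21% of all genes.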

How the data were processed

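Values were deposited as 1 linear intensity per probe set and array, for 45037 probe sets of an Affymetrix mouse array. The submitters' processing notes name MAS5 and RMA without saying which made the deposited values, and the values fit a linear scale. Groups came from the labels. Probe sets with 1 gene symbol in the platform annotation (34945, against 932 with several and 9160 with none) were used, and 34741 of their gene identifiers matched RefSeq. Probe sets above the array median on at least 2 of the 8 arrays were kept. The brightest probe set stood for each gene, which left 11217 genes. The change in log2(signal + 32) between the authors' deposited intensities of Rictor-null and WT Th1 arrays was tested in limma 3.58.1 (R 4.3.3), with 1 mean per group over all 8 arrays, empirical Bayes variances, and Benjamini-Hochberg adjustment at 0.05. The interaction with cell type came from the same fit. Genes below the filter, such as Foxp3, were taken from a fit without it. Figures were drawn with matplotlib 3.10.9 in Python 3.11.15. The test was also tried on data simulated from the means and spread of these arrays, and the outcome is not given here.

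The members and lists were chosen with earlier results of these data known. The genes that could be named, of which the text names some, were the 15 largest rises and the 15 largest falls without overlap between genotypes, every member of a list of at most 12 measured genes, otherwise the 6 called members with the smallest p and the defining members, a fixed set of lineage, sex and pathway genes, and called neighbours of Rictor. RIKEN and predicted genes and antigen receptor segments were left out of the first set. Tcf7 and Ddx3y were not analysed here. The alternatives were quantile normalization, no signal filter, a filter on 4 arrays, added constants of 1, 16 and 64, the mean of all probe sets per gene, array weights, a variance trend, Th1 arrays alone, the replicate block and leaving out each array.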

Additional observations from a re-analysis of the deposited data

Results flagged for a closer look

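The genotype change in Th1 cells differed from that in Tfh cells, in the limma interaction test adjusted over all genes, for 34 of the genes named in the text. Every value below is the Th1 change minus the Tfh change in log2(signal + 32), and each cell type had 2 arrays per genotype. A positive difference means a higher Rictor-null over WT ratio in Th1 cells. Many of these genes were named for a large Th1 change in the same arrays, which favours a difference of the same sign. Klre1, Ccr9, Fgl2 and Cxcl3 passed the signal filter only through Rictor-null arrays, and Arhgap29 only through WT Th1 arrays.

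Granule, receptor and migration genes of the Th1 comparison were among the positive differences. These were 0.75 for Gzma, 0.55 for Gzmb, 0.93 for Klre1, 0.62 for Klrg1, 0.61 for Ccr9, 0.50 for S1pr5 and 0.50 for Itgb1. Fgl2, whose change was 1.88 in Th1 cells and 0.86 ± 0.084 in Tfh cells, differed by 1.02. Cxcl3 differed by 1.03, Ahr by 0.75, Socs2 by 0.60, Tmem176a by 0.88, Tmem176b by 0.59, Pparg by 0.68 and Car2 by 0.48.

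Among the negative differences, genes of memory and naive cells had -0.58 for Igfbp4, -0.50 for Satb1 and -0.46 for Actn1. Taf7 had the largest size with -1.41, from -0.79 in Th1 cells and 0.62 ± 0.16 in Tfh cells, and its other kept probe set gave -0.04 in Th1 cells. Bst2 had -1.40, from -0.50 in Th1 cells and 0.90 ± 0.091 in Tfh cells, and Dnajc7 had -1.27. Il10 rose less in Th1 cells, with 0.42 against 1.16 ± 0.062 in Tfh cells and a difference of -0.74. Ramp1 differed by -0.88, Tesc by -0.67, Ddit4 by -0.63, Ighm by -0.59, Arhgap29 by -0.55, Sostdc1 by -0.55, Ifitm1 by -0.47, Pde3b by -0.46, Tnfsf14 by -0.44, Als2cl by -0.44, Pim1 by -0.43 and Grap2 by -0.41.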

How the results depend on the processing

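Of the 143 genes named in the text that passed, 132 did so under all of the 19 alternatives that tested them. The other 11 were Bbc3, Bst2, Ccr7, Cebpb, Cst3, Foxo1, Ighm, Lef1, Nipbl, Taf7 and Tnfrsf1a, and no named gene changed direction. The filter on 4 arrays tested 166 of the 171 tested genes that the text names. The total of 1180 genes ranged from 580 to 1775 with single arrays left out, the 847 rises from 460 to 1179 and the 333 falls from 120 to 596. It lay between 952 and 1404 under the other alternatives, and quantile normalization raised the falls to 538. Where 1 array was left out, the lone array of its group was assumed to vary like the other groups. The 34 named genes whose change differed from that in Tfh cells became 21 with no signal filter, 19 with an added constant of 1, and 10 to 70 with single arrays left out. The cause of these shifts was not tested.

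The labels state no shared mice, batch or day behind a replicate number. Deviations of same-numbered arrays correlated at 0.172 over genes between Rictor-null and WT Th1 cells, and between -0.514 and 0.276 for the other 5 pairs of groups, so the numbers were not taken to pair the samples. With the replicate number as a block, 952 genes passed (711 rises and 241 falls), and 23 named genes differed between Th1 and Tfh cells. With 2 arrays per genotype, precision was limited, and an exact permutation test of 1 gene could not reach a p below 0.333. Whether arrays of a genotype came from separate pools of mice is not stated in the labels, and the p-values measure only the spread between these arrays. Dim genes have compressed folds.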

Other observations

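Some of the largest differences lay in genes that belong to none of the groups above, and the genes given next, apart from Igfbp4, were chosen after their values were seen. All of them passed limma with Benjamini-Hochberg adjustment in the comparison of Rictor-null with WT Th1 cells, under all alternatives that tested them. Igf1r, the receptor for insulin-like growth factor 1, had 425 and 386 in Rictor-null Th1 cells, against 157 and 150.1 in WT Th1 cells, a rise of 1.23 ± 0.064 log2. Igfbp4, a binding protein of the same growth factors, had the largest fall, as given above. Plcb4, a phospholipase C downstream of G protein-coupled receptors, had 284 and 264 in Rictor-null Th1 cells, against 109.7 and 124 in WT Th1 cells (1.04 ± 0.068), and Gem, a small GTPase induced by mitogens, had 196 and 253 in Rictor-null Th1 cells, against 88.1 and 87.9 in WT Th1 cells (1.09 ± 0.12). Tiam1, an exchange factor for the GTPase RAC, rose by 0.98 ± 0.056, and Cdk6, a cyclin-dependent kinase of G1 phase, by 0.79 ± 0.059.

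Lipid-related and membrane genes followed. Pparg, a nuclear receptor for fatty acids, had 70.2 and 51.3 in Rictor-null Th1 cells, against 22.5 and 22.5 in WT Th1 cells (0.76 ± 0.088), and Fabp5, a fatty acid binding protein, had 343 and 322 in Rictor-null Th1 cells, against 176 and 191 in WT Th1 cells (0.76 ± 0.064). Car2, a carbonic anhydrase, had 236 and 216 in Rictor-null Th1 cells, against 92.8 and 85.6 in WT Th1 cells (1.09 ± 0.070). The neighbouring genes Tmem176a and Tmem176b, which encode related membrane proteins, rose by 0.98 ± 0.079 and 0.96 ± 0.070 log2. Among falls, Abcb1a, the drug efflux pump P-glycoprotein, had 154 and 165 in Rictor-null Th1 cells, against 235 and 283 in WT Th1 cells (-0.60 ± 0.082), and Ramp1, an accessory chain of the CGRP receptor, had 159 and 156 in Rictor-null Th1 cells, against 249.8 and 236 in WT Th1 cells (-0.54 ± 0.064).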
